A study of Mus musculus with 6 samples.

Results

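NRF2 is the transcription factor that switches on the antioxidant and detoxification genes of the cell. The results below describe 39 genes of its pathway, 30 targets and 9 regulators or related factors, in the human colorectal carcinoma line HCT116. The genes were taken by symbol from the deposited table of read counts, which holds 31456 rows, and each of the 39 symbols had a row. Of these, 37 passed the filter on low counts. The study sequenced 3 libraries of parental HCT116 cells and 3 of oxaliplatin-resistant HCT116 cells, and it asked which genes confer resistance to oxaliplatin, a platinum drug that forms DNA adducts. The labels give no drug dose, no selection scheme and no clone for the resistant cells, and they do not say whether the cells were exposed to drug at harvest. Whether libraries with the same label are separate cultures is not stated either. A p-value here sets the group difference against the spread between these libraries only, and that spread may be technical. The labels name the mouse as the organism, but the rows carry human identifiers.

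NRF2 is the product of the gene NFE2L2. In resting cells KEAP1 holds NRF2 and presents it to a ubiquitin ligase built on CUL3, and NRF2 is degraded. Oxidants and electrophiles modify KEAP1, and the autophagy receptor SQSTM1 (p62) can also bind it, after which NRF2 accumulates. It then pairs with a small MAF protein and binds antioxidant response elements, sites that the repressor BACH1 can occupy in its place. Its targets make and recycle glutathione and thioredoxin, supply NADPH, reduce quinones and carbonyls, and handle haem and iron. All values here are mRNA levels, and NRF2 protein was not measured.

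Library totals ranged from 20246878 to 32138423 counts. At that depth 3 counts, taken as the floor of detection, correspond to 0.0933 to 0.148 CPM (counts scaled to library size, the usual unit), and this floor covers counting error only. Parental replicate 2 stood apart from its group, with a chi-square per gene of 11.3 and 11 against the other parental libraries, which gave 2.01 between them (pairs of resistant libraries gave 2.69 to 4.51). The summed level of 7 epithelial markers, led by KRT8, was 2765 to 3156 CPM in the parental and 2577 to 2722 CPM in the resistant libraries. The epithelial marker VIL1 was near 0, at 0.0593 ± 0.0566 and 0.0584 ± 0.0705 CPM (SD, n = 3). The 5 leukocyte markers with a row summed to at most 0.482 CPM and the 3 endothelial markers to at most 1.47 CPM in any library. The 6 fibroblast markers summed to 22.5 to 26.1 CPM and 39.3 to 44.9 CPM, nearly all of it COL1A1 (24.3 ± 1.79 and 41.7 ± 2.91 CPM), while COL1A2, DCN and LUM had means of at most 0.0251 CPM in either group. COL1A1 and PDGFRB were the 2 of these markers that passed the filter on low counts, and COL1A1 rose. PDGFRB went from 0.162 ± 0.0519 to 0.569 ± 0.120 CPM (SD, n = 3). Its counts were 5, 6 and 2 in the parental libraries and 17, 13 and 15 in the resistant ones. PDGFRB passed the filter only through the resistant libraries, so its fold is not given. COL3A1 had 0 or 1 count in each parental and 5 to 11 counts in each resistant library. The part of the fibroblast markers in the members' values was not tested.

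Most members of the pathway were higher in the resistant cells. Of the 37 tested members 26 rose, 3 fell and 8 missed the threshold, which was an edgeR quasi-likelihood adjusted p below 0.05. Across all 16605 tested genes 27.3% rose and 26.5% fell, so that 53.8% passed in either direction. The share of tested members that rose was 70.3%, and the share that fell was 8.11%. At least 2-fold rises were measured for 12 members (32.4%), against 5.58% of all tested genes. No member fell that far, against 2.57% of all tested genes. The median log2 fold change was 0.56 over the tested members and 0.02 over all tested genes. In 31 of the 37 members the groups did not overlap in CPM, which was also the case in 61.2% of all tested genes. Without parental replicate 2, 27 of 38 tested members rose and 4 fell, and 1 fell without parental replicate 3 or without resistant replicate 3. With library sizes alone 65.3% of all calls were rises, against 50.8% with TMM, and 28 members rose and 1 fell. In bulk RNA a change in the share of cells with a transcript and a change in its level per cell cannot be told apart.

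The 12 members past 2-fold were OSGIN1, TRIM16L, NQO1, SRXN1, SQSTM1, GCLM, GSR, CBR3, GCLC, TRIM16, TXNRD1 and FTL. The 39 members together took 0.872% to 0.912% of all counts in the parental cells, and their share in the resistant cells was 1.59% to 1.63%. The ferritin genes FTL and FTH1 alone took 0.274% to 0.298% and 0.504% to 0.531%. The share of counts from mitochondrial genes moved with the groups too, at 4.86% to 5.15% in the parental and 6.37% to 6.99% in the resistant libraries, and its part in the members' values was not tested. Of the 28 tested targets 22 rose (78.6%) and 1 fell (3.57%), with a median log2 fold change of 0.66. Among the 9 regulators and related factors 4 rose (44.4%) and 2 fell (22.2%), with a median of 0.04. Across all tested genes the shares were 27.3% and 26.5% and the median was 0.02.

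**Figure D1:**
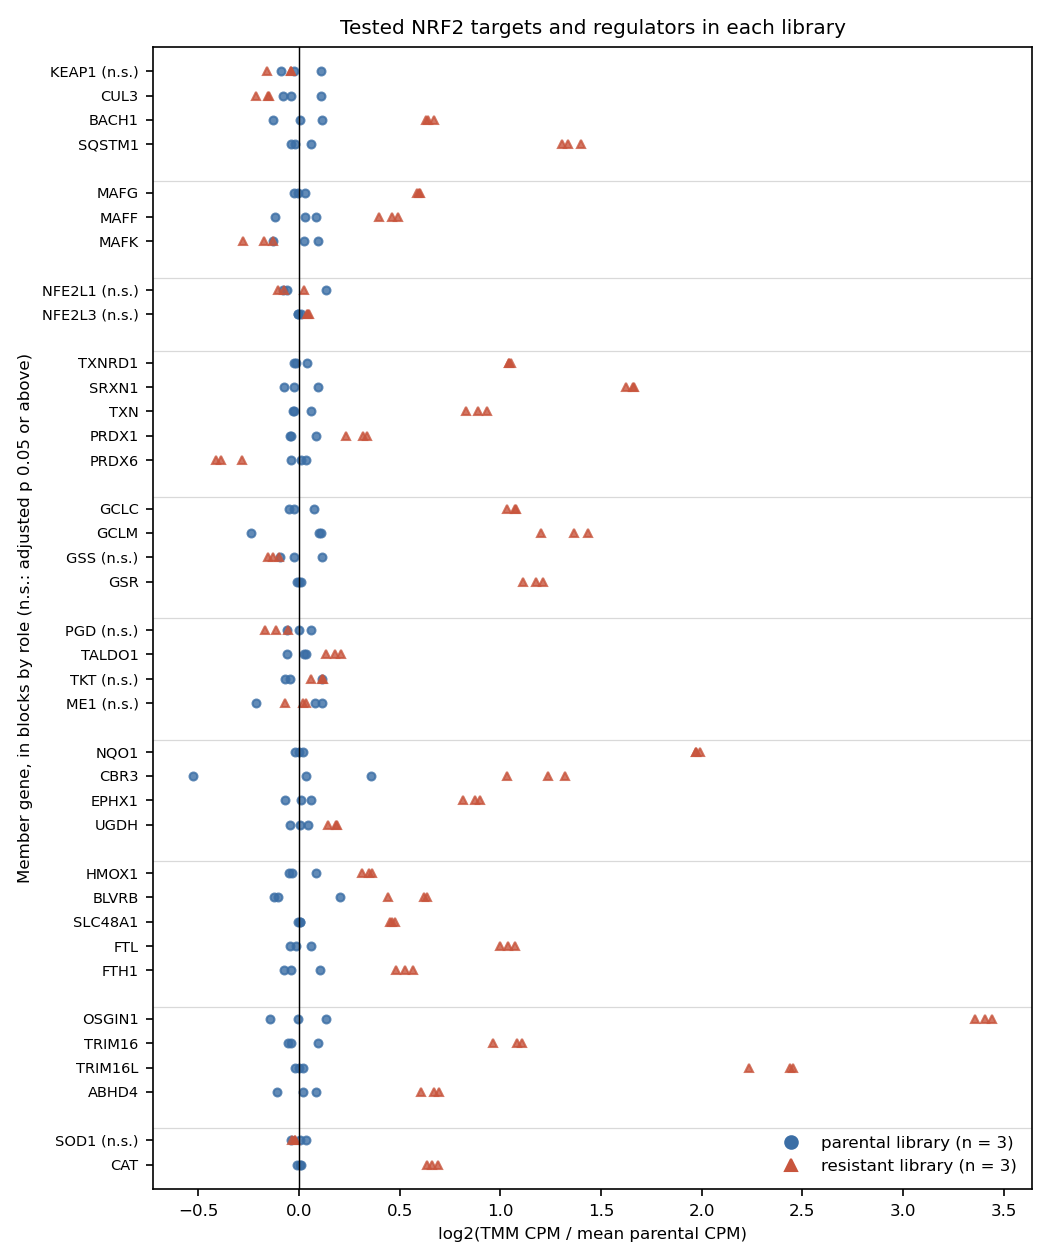
Each row is 1 of the 37 tested members, in blocks by role, and the horizontal axis is the log2 ratio of its TMM-normalised CPM in a library to the parental mean. Circles are the 3 parental and triangles the 3 resistant libraries; the resistant libraries lie to the right of the parental ones for 26 members past the threshold, farthest for OSGIN1, and to the left for CUL3, MAFK and PRDX6.

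The mRNA of NRF2 itself was higher in the resistant cells. So were 8 hand-picked genes that lie near NFE2L2, with log2 fold changes from 0.46 to 2.58, described under the other observations. Whether the rise is particular to NFE2L2 or shared by its region was not tested. NFE2L2 (ENSG00000116044.16), which was not among the 39 members and was named after its value was seen, had 135, 129 and 136 CPM in parental replicates 1, 2 and 3 and 317, 308 and 310.4 CPM in resistant replicates 1, 2 and 3. The libraries of each group lay close together and the groups were far apart. The rise was 2.34-fold (log2 fold change 1.23 ± 0.043 SE, edgeR adjusted p = 7.2e-10).

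In the KEAP1 complex, CUL3 was slightly lower and KEAP1 did not pass the threshold. KEAP1 (ENSG00000079999.14), the sensor that retains NRF2, had 93.5, 108 and 97.9 CPM in the parental and 96.8, 96.8 and 89.0 CPM in the resistant libraries. The groups overlapped, and the log2 fold change of -0.08 did not pass the threshold (edgeR adjusted p = 0.27, approximate 95% interval -0.20 to 0.03); its sign turned with library sizes alone and on the FPKM table. CUL3, the scaffold of the ligase, had 125, 121 and 138 CPM in the parental and 115, 115 and 110.3 CPM in the resistant libraries. The resistant values all lay below the parental ones, by a small margin. CUL3 fell by 11.1% (log2 fold change -0.17 ± 0.054 SE, edgeR adjusted p = 0.020). This CUL3 call was lost without parental replicate 3 (log2 fold change -0.12), without resistant replicate 3 (-0.15), with library sizes alone (-0.076) and on the FPKM table, with adjusted p-values from 0.0013 to 0.36 over the alternatives. RBX1, another subunit of this ligase, fell by 15.5% from 39.6 ± 2.29 to 33.6 ± 1.34 CPM (SD, n = 3, edgeR adjusted p = 0.0052). RBX1 is not a member and was named after its value was seen.

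SQSTM1 encodes p62, which sequesters KEAP1 and is itself an NRF2 target. Its level was 425, 456 and 431 CPM in the parental and 1154, 1079.5 and 1104 CPM in the resistant libraries. The gap between the groups was many times the spread within them, a 2.54-fold rise (log2 fold change 1.35 ± 0.047 SE, edgeR adjusted p = 7.3e-10). BACH1, the repressor that competes with NRF2 on antioxidant response elements, rose as well. It had 46.7, 39.4 and 43.3 CPM in the parental and 68.5, 66.9 and 67.1 CPM in the resistant libraries, a 1.57-fold difference (edgeR adjusted p = 4.3e-06), with parental replicate 2 lowest in its group.

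The small MAF proteins have no activation domain of their own and pair with NRF2 or BACH1. Their genes did not move one way. MAFG had 115, 117 and 119.9 CPM in the parental and 177, 178 and 176 CPM in the resistant libraries and rose 1.51-fold (edgeR adjusted p = 2.7e-07). The MAFF values were 24.2, 21.8 and 25.2 CPM and 31.2, 32.6 and 33.4 CPM, a 1.37-fold rise (edgeR adjusted p = 1.1e-04). Neither gene's groups overlapped. MAFK, in contrast, had 67.0, 57.4 and 63.9 CPM in the parental and 57.3, 51.6 and 55.6 CPM in the resistant libraries. The groups of MAFK almost touched, at 57.4 CPM in parental replicate 2 and 57.3 CPM in resistant replicate 1, and MAFK fell by 12.6%, a narrow pass (log2 fold change -0.19 ± 0.065 SE, edgeR adjusted p = 0.026). This MAFK call was lost without parental replicate 1 (log2 fold change -0.15) or 3 (-0.19), without resistant replicate 2 (-0.15) or 3 (-0.20), with library sizes alone (-0.10) and on the FPKM table, with adjusted p-values from 6.7e-04 to 0.46 over the alternatives.

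NFE2L1 and NFE2L3 encode the factors most closely related to NRF2. NFE2L1, which drives proteasome genes, had 288, 329 and 284 CPM in the parental and 285, 305 and 279 CPM in the resistant libraries, with overlapping groups (log2 fold change -0.05, approximate 95% interval -0.17 to 0.07, edgeR adjusted p = 0.49). NFE2L3 had 97.4, 97.5 and 98.6 CPM and 100.3, 101 and 101 CPM. All resistant values of NFE2L3 were above the parental ones, by a log2 fold change of only 0.04 that did not pass (interval -0.04 to 0.13, edgeR adjusted p = 0.39); it passed with library sizes alone and on the FPKM table, at 0.14 and 0.15. The NFE2L1 value turned positive in the same alternatives and without parental replicate 2.

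**Figure D2:**
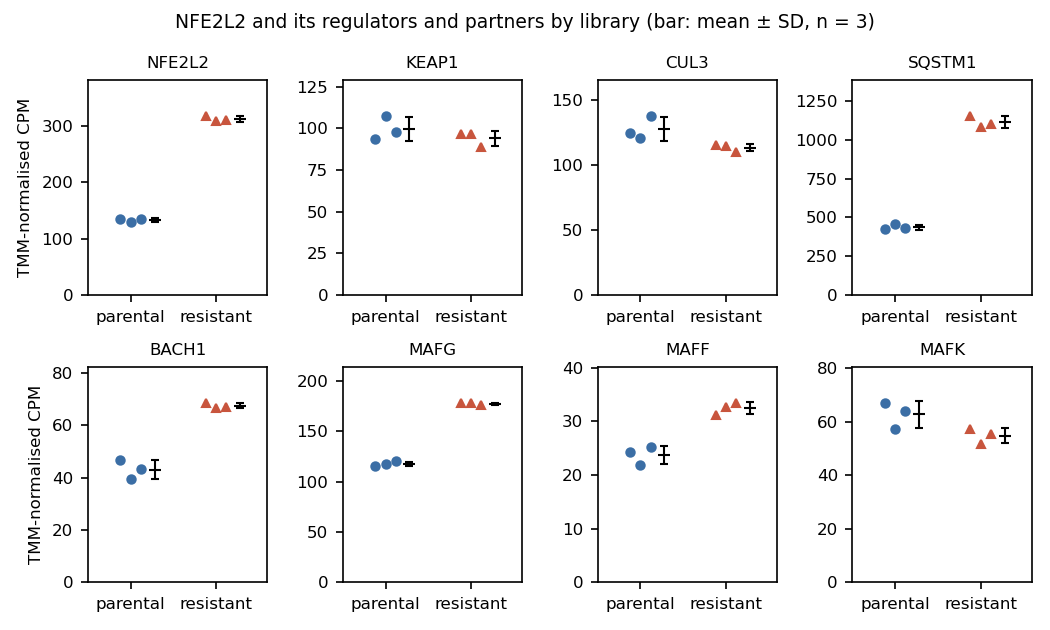
Each panel gives the TMM-normalised CPM of 1 gene on a linear axis from 0, with circles for the 3 parental and triangles for the 3 resistant libraries and bars for the mean and SD. NFE2L2, SQSTM1, BACH1, MAFG and MAFF are higher in every resistant library, CUL3 and MAFK are slightly lower, and the KEAP1 groups overlap.

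From the other genes listed for control of NRF2 protein, 19 were tested, of which 3 rose and 9 fell, with a median log2 fold change of -0.19. These are 15.8% and 47.4% of the list, against 27.3% and 26.5% of all tested genes. SESN2, a sestrin that promotes the breakdown of KEAP1 by autophagy, rose 2.0-fold from 20.4 ± 0.445 to 40.9 ± 0.457 CPM (SD, n = 3, edgeR adjusted p = 2.7e-08). BACH2, the relative of BACH1, rose 1.34-fold at a low level of 6.03 ± 0.748 and 8.06 ± 0.172 CPM. CUL1, the scaffold of the ligase that degrades NRF2 independently of KEAP1, fell 1.51-fold from 127 ± 2.22 to 84.1 ± 1.53 CPM (edgeR adjusted p = 3.7e-07). The receptors of that ligase that recognise NRF2, BTRC and FBXW11, were lower too, and they were picked out with their values known. BTRC fell by 12.4% and FBXW11 fell by 17.3%. Not every part of that ligase was lower. SKP1, its adaptor, did not pass (log2 fold change 0.01, edgeR adjusted p = 0.83) and was named after its value was seen. PALB2, whose protein can bind KEAP1, fell 1.33-fold.

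Of the 5 thioredoxin and peroxiredoxin members 4 rose and PRDX6 fell, where 27.3% of all tested genes rose and 26.5% fell. SRXN1, the sulfiredoxin that repairs overoxidised peroxiredoxins, had 162, 182 and 168 CPM in the parental and 538, 539 and 526 CPM in the resistant libraries. TXNRD1, the cytosolic thioredoxin reductase, had 881, 919 and 885 CPM and 1841, 1856 and 1847 CPM, and its substrate TXN had 154, 145 and 146 CPM and 275, 263 and 284 CPM. In all of these genes the lowest resistant library was well above the highest parental one. The rises were 3.13-fold, 2.06-fold and 1.85-fold (log2 fold changes 1.65 ± 0.050, 1.05 ± 0.042 and 0.89 ± 0.047 SE, edgeR adjusted p = 2.1e-10, 2.5e-09 and 2.5e-08). PRDX1, an abundant cytosolic peroxiredoxin, rose 1.23-fold from 901 ± 45.3 to 1106 ± 42.6 CPM (SD, n = 3, edgeR adjusted p = 4.0e-04). PRDX6, which also repairs oxidised phospholipids, went the other way. It had 237, 233 and 225 CPM in the parental and 191, 177 and 174 CPM in the resistant libraries, with no overlap, and fell 1.28-fold (log2 fold change -0.36 ± 0.048 SE, edgeR adjusted p = 5.6e-05). PRDX6 was the only target to pass the threshold as lower, and its call held in each alternative tried.

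In glutathione metabolism the rate-limiting ligase and the recycling enzyme rose, and the enzyme of the last step of synthesis did not pass. GCLC, the catalytic subunit of glutamate-cysteine ligase, had 137, 125 and 127 CPM in the parental and 273, 266 and 274 CPM in the resistant libraries. Its modifier subunit GCLM had 69.3, 54.4 and 68.8 CPM and 165, 148 and 173 CPM, with the number 2 libraries lowest in each group. GSR, which returns oxidised glutathione to its reduced form, had 193, 194 and 196 CPM and 450.4, 419.5 and 439 CPM. None of these genes overlapped between the groups, with rises of 2.09-fold, 2.53-fold and 2.24-fold (edgeR adjusted p = 4.9e-09, 7.4e-06 and 1.3e-09). GSS, the glutathione synthetase, had 79.3, 91.5 and 83.0 CPM in the parental and 78.8, 77.3 and 75.9 CPM in the resistant libraries. Its log2 fold change of -0.13 did not pass (approximate 95% interval -0.24 to -0.02, edgeR adjusted p = 0.071), although the resistant values lay below the parental ones, and it passed as lower without parental replicate 1 (-0.19) and with no count filter (-0.15). GPX2, the gastrointestinal glutathione peroxidase, had 13, 2 and 10 counts in the parental and 7, 5 and 2 counts in the resistant libraries, too few for the test.

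Among the 4 tested members of the NADPH supply group 1 rose (25%), close to the 27.3% of all tested genes that rose. NADPH is the reductant that the thioredoxin and glutathione systems consume, and in this group TALDO1 and TKT do not release it themselves. TALDO1, the transaldolase of the pentose phosphate pathway, had 144, 154 and 153 CPM in the parental and 169.9, 165 and 173 CPM in the resistant libraries and rose 1.13-fold (log2 fold change 0.17 ± 0.045 SE, edgeR adjusted p = 0.0070). Its groups did not overlap, but the call was lost without parental replicate 1 (log2 fold change 0.13). The transketolase TKT had 575, 643 and 566 CPM and 644, 644 and 619 CPM, overlapping through parental replicate 2 (log2 fold change 0.10, interval -0.0074 to 0.20, edgeR adjusted p = 0.15). Without that library TKT passed as higher, at 0.16, and it also did so with library sizes alone and on the filtered FPKM table. PGD, the dehydrogenase that releases NADPH in this pathway, had 269, 292 and 281 CPM in the parental and 259.7, 270.0 and 249.8 CPM in the resistant libraries. The PGD groups overlapped slightly (log2 fold change -0.11, interval -0.21 to -0.02, edgeR adjusted p = 0.065), and without parental replicate 1 it passed as lower, at -0.15, as it did with no count filter (-0.13). ME1, the cytosolic malic enzyme, had 107, 87.4 and 109.8 CPM and 104, 96.7 and 103 CPM, with parental replicate 2 below all other libraries (interval of the log2 fold change -0.16 to 0.15, edgeR adjusted p = 0.99). Outside the members, IDH1, the cytosolic isocitrate dehydrogenase, fell 2.54-fold from 147 ± 5.76 to 57.9 ± 1.13 CPM (SD, n = 3, edgeR adjusted p = 8.0e-10) and was picked out with its value known.

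All 4 tested enzymes of quinone, carbonyl and xenobiotic metabolism rose, by very different amounts, against 27.3% of all tested genes. NQO1 (ENSG00000181019.13), the quinone reductase that serves as a standard readout of NRF2, had 409.8, 414 and 404 CPM in the parental and 1605, 1604 and 1625 CPM in the resistant libraries. Libraries of a group differed by a few percent, and the groups by 3.94-fold (log2 fold change 1.98 ± 0.042 SE, edgeR adjusted p = 1.6e-11). Carbonyl reductase CBR3 was scarce, with 36, 52 and 18 counts and 82, 91 and 70 counts, or 1.35, 1.69 and 0.916 CPM and 3.29, 3.11 and 2.70 CPM. It rose 2.24-fold with a wide error (log2 fold change 1.16 ± 0.21 SE, edgeR adjusted p = 5.5e-04). EPHX1, the microsomal epoxide hydrolase, had 37.5, 40.9 and 39.6 CPM and 73.3, 69.1 and 72.2 CPM and rose 1.82-fold (edgeR adjusted p = 9.7e-08). UGDH, which makes UDP-glucuronate for glucuronidation, had 79.7, 75 and 77.6 CPM and 88.3, 85.5 and 87.8 CPM, a 1.13-fold rise without overlap (edgeR adjusted p = 0.0077). The row of CBR1 held 1, 0 and 1 counts in the parental and 2, 1 and 1 counts in the resistant libraries, under the floor of detection, and no fold is given. Whether the counting set reads of CBR1 aside was not tested, and the row alone does not show that the gene is not expressed.

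All 5 haem and iron genes rose, against 27.3% of all tested genes. FTL, the ferritin light chain, had 1273, 1368 and 1302 CPM in the parental and 2701, 2763 and 2622 CPM in the resistant libraries. FTH1, the ferritin heavy chain that oxidises iron for storage, had 1539.7, 1743 and 1576 CPM and 2333, 2399.5 and 2258 CPM. The light chain rose 2.05-fold and the heavy chain 1.44-fold (log2 fold changes 1.04 ± 0.047 and 0.52 ± 0.054 SE, edgeR adjusted p = 6.4e-09 and 8.1e-06). On the FPKM scale, which accounts for gene length, the ratio of FTL to FTH1 was 0.963, 0.952 and 1.04 in the parental and 1.29, 1.22 and 1.28 in the resistant libraries, without overlap. Rows named as ferritin pseudogenes, 4 for FTL and 15 for FTH1, held at most 0.0610% of the counts of their parent gene, and adding them left both calls in place.

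SLC48A1, a haem transporter, had 19.6, 19.7 and 19.7 CPM in the parental and 26.8, 27.4 and 27.1 CPM in the resistant libraries, the narrowest parental range of the group. BLVRB, the flavin and biliverdin reductase, had 37.5, 47.0 and 37.9 CPM and 62.7, 63.3 and 55.3 CPM, with parental replicate 2 highest in its group but below each resistant library. They rose 1.38-fold and 1.48-fold (edgeR adjusted p = 2.2e-05 and 4.6e-04). HMOX1, the inducible haem oxygenase and a gene that BACH1 represses, had the smallest rise of the 5. Its level went from 22.3 ± 1.16 to 28.2 ± 0.521 CPM (SD, n = 3), 1.27-fold higher (log2 fold change 0.34 ± 0.059 SE, edgeR adjusted p = 4.3e-04). Of all tested genes 23.4% had a larger log2 fold change than HMOX1, against 1.63% for NQO1.

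OSGIN1 (ENSG00000140961.13), an oxidative stress-induced growth inhibitor, had the largest rise of all tested members. It had 12.3, 14.9 and 13.5 CPM in the parental and 148, 144 and 139 CPM in the resistant libraries. The lowest resistant library was many times the highest parental one, and the fitted rise was 10.6-fold (log2 fold change 3.40 ± 0.068 SE, edgeR adjusted p = 1.0e-11). By log2 fold change OSGIN1 ranked 69 of 16605 tested genes. ABHD4, a lipid hydrolase, had 18.4, 17.6 and 16.0 CPM and 27.6, 28.1 and 26.4 CPM and rose 1.57-fold without overlap (edgeR adjusted p = 6.1e-06).

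TRIM16, a tripartite motif protein linked to the handling of stress-damaged proteins, had 26.9, 29.5 and 26.6 CPM in the parental and 58.6, 59.7 and 54.0 CPM in the resistant libraries. Its shorter copy TRIM16L had 8.94, 8.81 and 9.06 CPM and 49.0, 48.5 and 42.1 CPM. Both were higher in every resistant library, by 2.07-fold and 5.21-fold (edgeR adjusted p = 6.8e-08 and 3.1e-10). The genes are near-identical over long stretches, so the division of reads between them is uncertain. With their counts summed, an alternative chosen after the data were seen, the log2 fold change was 1.5 (edgeR adjusted p = 2.3e-09).

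Catalase rose and copper-zinc superoxide dismutase did not pass. CAT, the peroxisomal enzyme that breaks down hydrogen peroxide, had 52.1, 52.3 and 51.7 CPM in the parental and 80.8, 82.4 and 84.0 CPM in the resistant libraries and rose 1.58-fold (log2 fold change 0.66 ± 0.045 SE, edgeR adjusted p = 2.4e-07). SOD1, which converts superoxide to hydrogen peroxide, had 241, 254 and 249 CPM and 244, 244 and 242 CPM. The resistant values of SOD1 fell within the parental range (log2 fold change -0.03, approximate 95% interval -0.11 to 0.06, edgeR adjusted p = 0.62), and its sign turned with library sizes alone and on the FPKM table.

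Levels can be compared between genes only per length. On the FPKM scale FTH1 and FTL were highest among the members in the parental libraries, at 2431 ± 161 and 2389.8 ± 95.3 FPKM (SD, n = 3), a difference within their spread. PRDX1 followed at 1469 ± 70.3 FPKM. NQO1, SOD1, TXN and TXNRD1 lay close together next, at 392 ± 10.7, 381 ± 12.2, 361 ± 8.50 and 349 ± 28.8 FPKM. In the resistant libraries FTL led with 5059 ± 120.4 FPKM before FTH1 with 4005 ± 197, and NQO1 reached 1465 ± 9.16 FPKM, well above SOD1 at 387 ± 3.42. OSGIN1 moved from place 34 of 39 to place 17, with 8.96 ± 0.968 and 99.9 ± 5.27 FPKM. SRXN1 moved from place 16 to 10, with 69.8 ± 3.67 and 232 ± 3.23 FPKM, and TRIM16L from place 36 to 28. GCLC stayed above GCLM in every library, with a ratio of 2.32 to 2.63 in the parental and 2.0 to 2.31 in the resistant group. The regulators KEAP1 and CUL3 had 44.8 ± 3.41 and 45.9 ± 1.96 FPKM in the parental libraries, a difference within their spread.

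**Figure D3:**
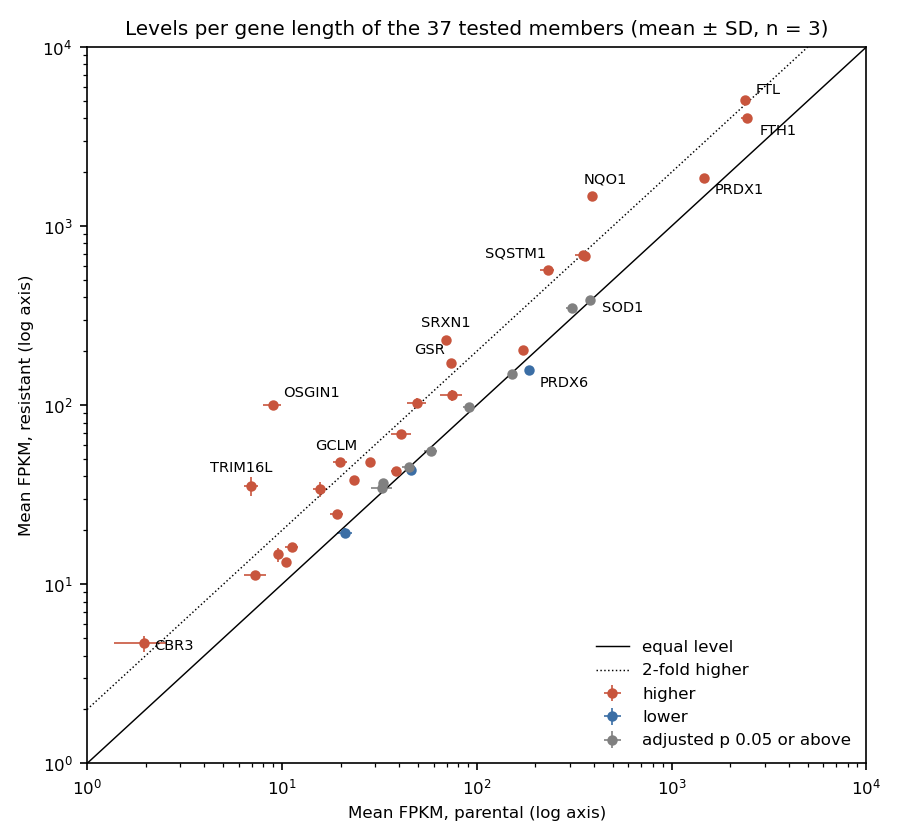
Mean FPKM of the 37 tested members in the parental (horizontal) and resistant (vertical) libraries, on log axes with SD bars over 3 libraries and colours for the edgeR call on counts. Most points lie above the line of equal level, and the points beyond the 2-fold line include OSGIN1, TRIM16L, NQO1 and SRXN1, while PRDX6, CUL3, MAFK, GSS and PGD lie under the line of equal level.

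Other genes linked to NRF2, from a list that held none of the members, were mostly higher. This list too was chosen with earlier results of these data known, so it is no separate check on the members. Of 27 tested 20 rose and 2 fell, with a median log2 fold change of 0.82. These are 74.1% and 7.41% of the list, against 27.3% and 26.5% of all tested genes. NFE2L2 itself, described above, is in this list and is counted among its rises. The largest changes were rises of the aldehyde dehydrogenase ALDH3A1 (log2 fold change 4.82), the aldo-keto reductases AKR1C3 (2.66) and AKR1B10 (1.98) and the prostaglandin reductase PTGR1 (1.97). AKR1C3 and AKR1B10 were scarce in the parental cells, at 1.08 ± 0.776 and 2.68 ± 1.35 CPM (SD, n = 3), with parental replicate 2 lowest. Their folds had wide errors (SE 0.49 and 0.37, edgeR adjusted p = 0.0053 and 0.0052). PTGR1 went from 34.7 ± 1.5 to 136 ± 5.53 CPM (SD, n = 3, edgeR adjusted p = 8.3e-11). The list also held the cystine transporter SLC7A11, which rose 1.82-fold, and the taurine transporter SLC6A6, which rose 2.15-fold. The 2 that fell were IDH1 and the efflux pump ABCC2 (log2 fold change -1.25). SLC7A11, SLC6A6 and ABCC2 were named after their values were seen.

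Among antioxidant genes of other compartments or systems, 5 of 17 tested rose and 5 fell, with a median log2 fold change of 0.06 and no 2-fold change. At 29.4% in each direction these shares are close to those of all tested genes (27.3% and 26.5%). GLRX, the cytosolic glutaredoxin, rose 1.94-fold from 19.8 ± 0.609 to 38.3 ± 0.628 CPM (SD, n = 3), and PRDX2 rose 1.30-fold. The mitochondrial thioredoxin TXN2 fell 1.32-fold and PRDX5 fell 1.46-fold. SOD2, the mitochondrial superoxide dismutase, had 141 ± 7.25 and 141 ± 2.02 CPM and did not pass (edgeR adjusted p = 0.90). SOD2 was named after its value was seen. The difference between the lists was not tested.

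**Figure D4:**
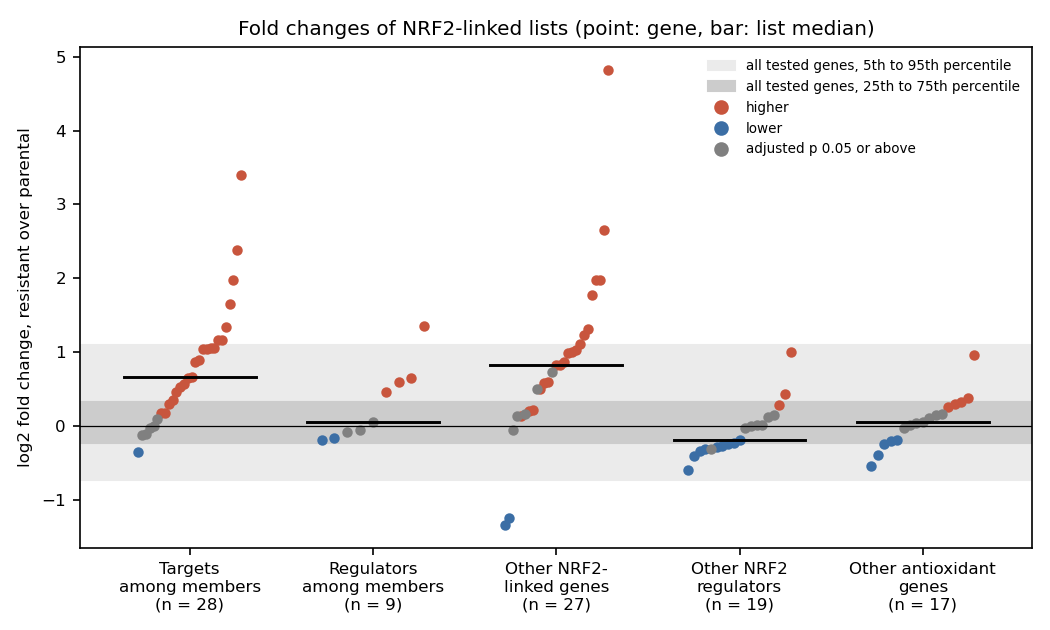
Each point is a tested gene and each bar a list median, on an axis of log2 fold change (resistant over parental), with grey bands for the middle of all tested genes. The targets among the members (median 0.66) and the other NRF2-linked genes (0.82) lie mostly above 0, and the regulators (0.04), the other NRF2 regulators (-0.19) and the other antioxidant genes (0.06) spread to both sides.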

How the data were processed

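Bulk RNA of 3 parental and 3 resistant HCT116 libraries was sequenced. Per the labels' protocols, a SMARTER mRNA kit was used on total RNA. The aligner, the counter and whether strand was used are not given in these sources, so reads of antisense or overlapping genes cannot be told apart. The submitters' processing notes name mouse builds, yet 30616 of 31456 rows carry human identifiers. Identifiers were used as deposited, and no coordinates or sequences are given.

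The authors deposited raw read counts for each gene. A second table holds values taken here as FPKM computed by the authors, a unit inferred from the values. FPKM served for levels between genes and for alternatives.

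Counts were tested with edgeR 4.0.16 in R 4.3.3 (TMM factors, filterByExpr, robust quasi-likelihood test, two-sided), with Benjamini-Hochberg adjustment over all 16605 tested genes and a threshold of 0.05. CPM are TMM-normalised. A standard error is the log2 fold change divided by the square root of F, and a 95% interval is the estimate ± 1.96 SE. With 3 against 3 libraries an exact permutation test cannot give a p below 0.10, so none was made. Alternatives used limma 3.58.1 and DESeq2 1.42.0, other scaling and filters, a replicate block, and each library left out. In simulated data of 16412 genes, edgeR recovered 29 of 50 genes changed 1.25-fold and 49 of 50 changed 1.5-fold, with 11 false calls. The simulation gave all genes the same dispersion, changed only a few well-counted genes and had no outlying library. Its recovery and false calls therefore do not carry over directly to these data.

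The members and lists were chosen with earlier results of these data known. Every tested member is named, and the value of every library is given for up to 4 members of each role with the largest absolute log2 fold change. From each other list up to 4 genes past the threshold with the largest change are named, and others are marked as named after their values were seen.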

Additional observations from a re-analysis of the deposited data

How the results depend on the processing

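Of 592 member values under 16 alternatives, 539 kept direction and side of the threshold, and 25 of the 26 rises did so in each (TALDO1 was the exception). The number of falls moved. It was 3 with edgeR, 1 with library sizes alone and in each FPKM fit, 5 with no count filter, and 1 to 4 with each library left out in turn (1 without parental replicate 3 or resistant replicate 3). The median log2 fold change of the members was 0.66 with library sizes alone, 0.62 on FPKM with a pseudocount of 0.1, and 0.49 to 0.58 with each library left out. Genes called across the table numbered 8933 with edgeR, 5493 on FPKM with no filter, and 7666 to 9209 with each library left out. Library sizes alone moved the share of calls that were higher from 50.8% to 65.3% (28 members higher, 1 lower) and the median of all genes from 0.02 to 0.11.

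The replicate numbers do not pair the libraries by the labels. Deviations of same-numbered libraries correlated at 0.098, 0.26 and 0.083, and parental replicate 3 correlated best with resistant replicate 1 (0.11). With the replicate block 9973 genes and 32 members passed, 27 higher and 5 lower, with TKT (0.098), GSS (-0.13) and PGD (-0.11) added. In that fit ME1 turned to 0.0045.

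Signs turned only in members near 0 that passed in no alternative. With library sizes alone the values were 0.013 for KEAP1, 0.042 for NFE2L1, 0.092 for ME1 and 0.068 for SOD1. On FPKM with a pseudocount of 1, filtered or not, they were 0.017, 0.11, 0.085 and 0.025, and with a pseudocount of 0.1 they were 0.017, 0.11, 0.088 and 0.025. ME1 was 0.0072 with at least 1 CPM in 3 libraries and 0.0081 with limma voom. With each library left out ME1 ranged from -0.10 to 0.050 and NFE2L1 from -0.10 to 0.019. The cause was not tested.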

Other observations

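NFE2L2 lies on the long arm of human chromosome 2. The levels of 8 genes known to lie near it there were looked at after the NFE2L2 value had been seen, and they are given without a test. The 8 were picked by hand, with no fixed window or rule, and do not stand for every gene of the region. All 8 had a log2 fold change above 0, from 0.46 (RBM45) to 2.58 (TTC30A), with a median of 0.96 against 0.02 over all tested genes, and in each the groups did not overlap, as in 61.2% of all tested genes. HNRNPA3, which encodes a nuclear RNA-binding protein, went from a mean of 683 to 1327.5 CPM (log2 fold change 0.96). AGPS, an enzyme of ether lipid synthesis, went from 121 to 243 CPM (1.0), and PRKRA, an activator of the kinase PKR, from 42.7 to 83.4 CPM (0.97). The mitochondrial import gene MTX2 had 37.1 and 69.0 CPM (0.89) and the oxysterol-binding protein gene OSBPL6 had 27.3 and 100.3 CPM (1.87). TTC30B, a close copy of TTC30A with which it may share reads, had a log2 fold change of 0.68 at means of 0.859 and 1.39 CPM. NFE2L2, at 1.23, lay within the range of these 8 genes. Whether it rose apart from them was not tested.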
